A study of Mus musculus with 7899 samples.

Results

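The genes described here encode potassium, calcium and sodium channels and their auxiliary subunits, read out in β cells of the mouse pancreas, 1 cell at a time, through pregnancy, after delivery and in culture. They were taken by symbol: all names that begin with Kcn and a further letter, with Cacn, or with Scn and a digit, together with Abcc8 and Abcc9. Among 21767 genes, 31 such symbols had a mean of at least 10 CPM (read counts scaled to the depth of the library) in at least 1 group and are described below; they are 22.8% of all channel symbols in the tables. The members are 1 of 4 subunits of the ATP-sensitive potassium (KATP) channel, Abcc8, 1 of 13 other inward rectifiers, Kcnj5, 6 of 40 voltage-gated, 4 of 8 calcium- or sodium-activated and 2 of 14 2-pore potassium channels, 4 of 16 potassium channel auxiliary subunits, 4 of 10 pore-forming and 4 of 16 auxiliary calcium channel subunits, and 4 of 10 pore-forming and 1 of 4 auxiliary sodium channel subunits; 1 further symbol encodes no subunit. These families go by symbol alone. The one named calcium- or sodium-activated takes all Kcnma, Kcnn, Kcnt and Kcnu symbols, Kcnu1 among them, whatever opens the channel. Just inside the threshold stood Kcnj5, Kcnn3 and Kcnn2, with highest group means of 10.7, 11.3 and 11.8 CPM, and just outside it stood Kcnh1 and Kcnb2 with 9.94 and 9.68 CPM.

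In a β cell, glucose breakdown raises ATP, which closes KATP channels and depolarizes the membrane. Voltage-gated sodium and calcium channels then carry action potentials, calcium entry releases insulin granules, and voltage-gated and calcium-activated potassium channels end each burst. Pregnancy is a state in which maternal islets are known to increase their secretion of insulin.

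The study sampled female C57BL/6J mice, and each of 7897 samples is 1 sorted cell labelled as a β cell, read with Smart-seq3xpress, a plate method that covers whole transcripts. The reads of all cells that share a group and a replicate number were added up, giving 100 libraries of 21 to 160 cells and 13273435 to 181405413 reads. The time course on standard diet held gestation days G3.5, G5.5 and G6.5, then G8.5, G10.5 and G12.5, then G14.5, G16.5 and G18.5, days (P) 2, 7 and 14 after delivery with (L) or without (NL) what was read as lactation, and gestation day 0 (G0) as baseline. Other sets held Acss2 knockout (KO) and wild-type (WT) mice and Stat3 KO and WT mice at G14.5, G18.5 and G0, p300 KO and WT mice at G14.5 and G0, and, on high-fat diet (HFD), C57BL/6J mice at G14.5, P7NL and G0 and Acss2 KO and WT mice at G14.5 and G0, beside Acss2 WT mice at G14.5 on standard diet (SD). Cultured islets were kept for 4 days in 20% human maternal serum (MS) or human normal serum (NS), with 5 µM A485, an inhibitor of the acetyltransferases p300 and CBP, with 20 µM nifuroxazide, known as an inhibitor of STAT3 signalling, or with the vehicle DMSO. The cells that carry each knockout, the age of the mice and how many mice gave the cells of a library are not stated in the labels. Groups had 2 replicates, or 3 at G14.5, G18.5 and P14L and at G14.5 on HFD.

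The label of β cells was checked on 12 marker genes. In the time course Ins1 stood at 105005 to 201823 CPM and Ins2 at 268962 to 533843 CPM, while Mafa was low at 0.61 to 4.33 CPM. Insulin reads took 33 to 69.8% of a library, and 21 cells had over 5% of their reads in other islet hormones. Markers of other cells moved between groups as well. Summed δ-cell markers were at 65.5 to 170 CPM at G14.5, against 299 to 803 CPM at G0. Summed α-cell markers were at 968 to 1572 CPM at G14.5, against 1596 to 3161 CPM at G0, and immune markers at 52.5 to 116.2 CPM at G14.5, against 27.4 to 57.3 CPM at G0. Of these lists, 0 of 6 δ-cell and 0 of 9 α-cell markers were at 0 at G0, while 6 of 8 immune markers, Ptprc and Cd74 among them, were at 0 there; their part in the results on channels was not tested. In the knockouts reads of the targeted gene remained: at G14.5, Acss2 had 17.9 and 19.03 CPM in Acss2 KO and 25.5 and 38.5 CPM in Acss2 WT libraries, Stat3 had 67.4 and 73.7 CPM in Stat3 KO and 80.3 and 90.2 CPM in Stat3 WT libraries, and Ep300, which encodes p300, had 20.4 and 19.7 CPM in p300 KO and 27.5 and 37.2 CPM in p300 WT libraries. The deleted exons are not stated in the labels, so these reads do not check the labels.

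Among the members at G0, read per kilobase of the deposited gene length, Abcc8 was by far the most abundant at 115.6 ± 0.641 CPM per kb (SD, n = 2). Abcc8 encodes SUR1, the sulfonylurea receptor that forms the KATP channel with the pore Kir6.2. The 2-pore channel Kcnk16 (TALK-1), which carries a background potassium current in β cells, followed at 42.1 ± 3.31 CPM per kb, and Kcnmb2, an auxiliary subunit of the large-conductance calcium-activated potassium channel, at 31.2 ± 0.735 CPM per kb. Kcnip1, a calcium-binding partner of Kv4 channels, had 14.02 ± 3.96 CPM per kb, Cacnb3, a cytoplasmic calcium channel subunit, 11.8 ± 2.11 CPM per kb, the 2-pore channel Kcnk1 11.2 ± 2.75 CPM per kb, and Cacna2d1, the α2δ subunit that brings calcium channels to the membrane, 11.1 ± 1.70 CPM per kb. From Kcnip1 to Cacna2d1 these neighbours differed by less than their spread. The second place of Kcnk16 rests on its short deposited length. Without regard to length it had 36.998 CPM at G0, below Kcnip1 at 57.4 CPM and Cacna2d1 at 83.2 CPM, among others. Deposited lengths are not all of 1 kind, since that of 1 member equals its coding length.

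Among pore-forming calcium channel subunits at G0, Cacna1d (Cav1.3) and Cacna1a (Cav2.1, the P/Q type) had 4.57 ± 0.125 and 4.49 ± 0.656 CPM per kb and Cacna1c (Cav1.2) 3.02 ± 0.115 CPM per kb, while Cacna1b (Cav2.2, the N type) had 0.679 ± 0.240 CPM per kb. Among sodium channels at G0, Scn9a (Nav1.7) had 2.17 ± 0.512 CPM per kb, Scn8a (Nav1.6) 1.55 ± 0.139 CPM per kb and Scn3a (Nav1.3) 0.737 ± 0.387 CPM per kb. Scn4a, the sodium channel of skeletal muscle (Nav1.4), had 0 reads at G0, and Kcnj5 (GIRK4, a G-protein-gated inward rectifier of heart) had 6 reads in all. Kcnj11, the Kir6.2 pore, was no member: its libraries in the time course held 1.14 to 7.24 CPM. The threshold is on CPM without regard to length, and the deposited length of Kcnj11 is short. Per kilobase its mean in Acss2 WT mice at G0 was 3.20 CPM per kb, where Cacna1d had 4.65 and Cacna1c 2.79 CPM per kb. Without regard to length the mean of Kcnj11 there was 3.76 CPM. Its G0 libraries in the time course held more, at 5.60 and 5.00 CPM.

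Over the time course 15 of 31 members varied between groups (edgeR's quasi-likelihood F test over 16 groups, Benjamini-Hochberg adjusted p under 0.05), where 17.4% of all tested genes did. They were Abcc8, Kcnj5, Kcnf1, Kcnh6, Kcnk16, Kcnn2, Kcnn3, Kcnip1, Kcnmb2, Cacna1a, Cacna1c, Cacna1d, Cacna2d1, Scn4a and Scn9a. By family these were Abcc8, the inward rectifier, 2 of 6 voltage-gated, 2 of 4 calcium- or sodium-activated and 1 of 2 2-pore potassium channels, 2 of 4 potassium auxiliary subunits, 3 of 4 pore-forming and 1 of 4 auxiliary calcium subunits, and 2 of 4 pore-forming sodium subunits. Scn9a had the smallest adjusted p at 7.3e-06. DESeq2 called 17 members. In this table the mean of 17 members was at 10 CPM or more in every group, and that of 7 reached 10 CPM in none.

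**Figure D1:**
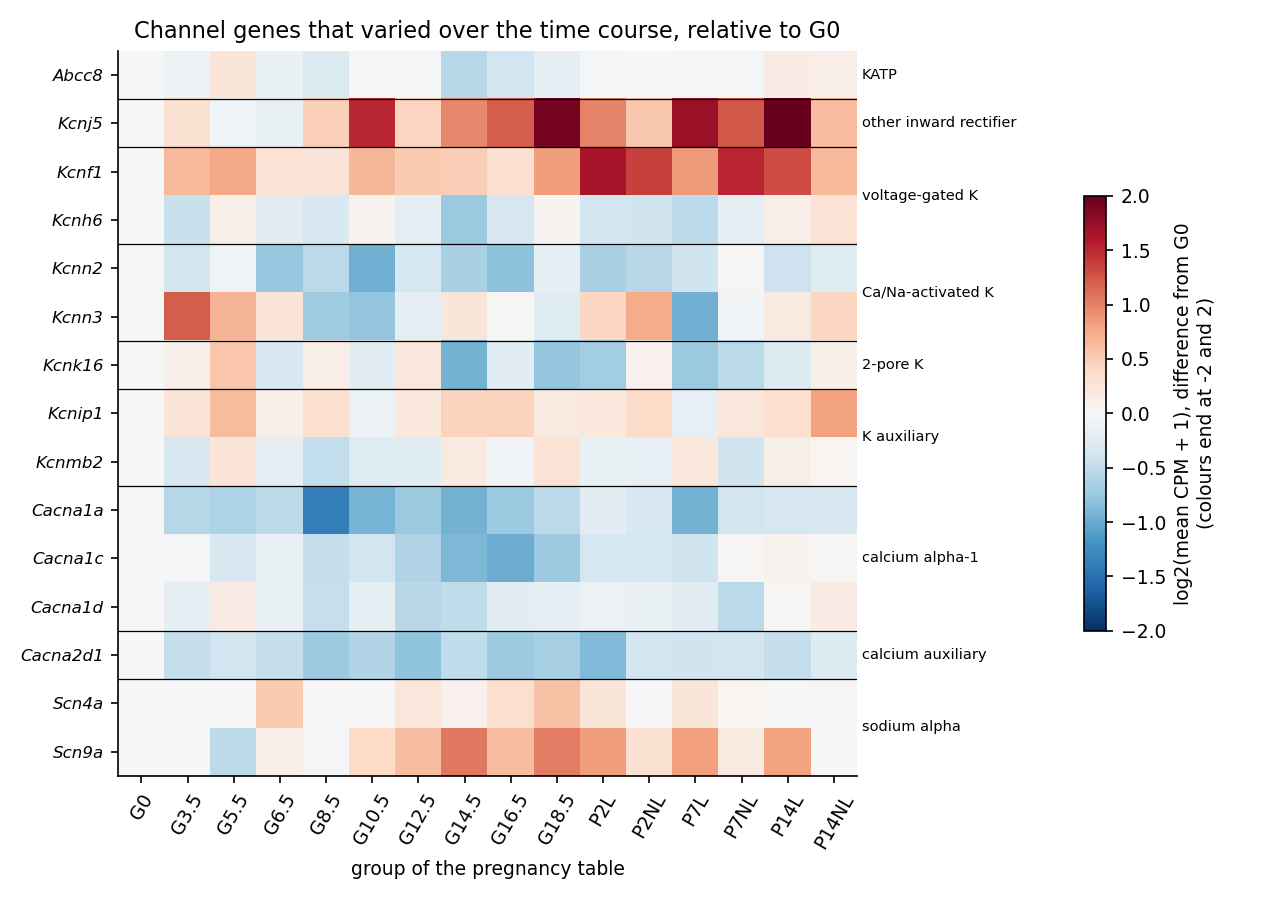
Each row is 1 of the 15 members that varied over the time course and each column 1 group of the time course; colour gives the group mean on the log2(CPM + 1) scale minus that of G0, and colours end at differences of -2 and 2. Cacna1a, Cacna1c and Cacna2d1 are blue at G14.5, where Scn9a is red, and Kcnj5 is red at G18.5 and P14L.

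At G14.5, 8 of 31 members differed from G0, against 10.1% of all genes tested: 7 were lower, where 4.15% of all genes were, and Scn9a was higher, where 5.96% of all genes were. The median log2 fold change over the 31 members was -0.19 and over all genes 0.0054. The lower members were Abcc8, 3 of 4 pore-forming calcium subunits, Cacna2d1, Kcnh6 and Kcnk16. Of the members, no potassium channel or auxiliary gene was called higher. With DESeq2, 11 members were called.

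Scn9a encodes Nav1.7, a voltage-gated sodium channel known from pain-sensing neurons and present in mouse β cells. Its libraries held 52.8, 34.5 and 48.9 CPM at G14.5, against 24.9 and 17.8 CPM at G0. All 3 G14.5 libraries lay above both G0 libraries, and the log2 fold change was 1.08 ± 0.21 (SE; adjusted p = 0.00093, edgeR). At least 1 Scn9a read was found in 296 cells at G14.5 (93.4%) and in 83 cells at G0 (77.6%). With each cell thinned to 300000 reads the shares were 87.9% at G14.5 and 69.2% at G0, and the median depth was 1.02e+06 reads per cell at G14.5 and 834591 at G0. Here and below, thinned shares leave out cells with fewer reads than that, 3 at G14.5 and 0 at G0. The call was lost without the second G0 replicate (log2 fold change 0.87). At G18.5 its libraries held 52.98, 41.6 and 38.3 CPM, again all above G0, with a log2 fold change of 1.05 ± 0.21 (adjusted p = 0.0019). On the other days of gestation, which were not tested singly, the libraries of G3.5, G5.5, G6.5 and G8.5 held 14.53 to 25.7 CPM, and those of G10.5, G12.5 and G16.5 held 27.97 to 38.3 CPM.

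The bases before the start of Scn9a, the member called in most of the independent G14.5 comparisons, and of Kcnf1, the member with the largest called fold between p300 KO and p300 WT mice, are shown because the study includes knockouts of Stat3, a DNA-binding factor, and of p300, a coactivator. Both come from the RefSeq table for GRCm38.p6 and run 5′ to 3′ on the minus strand, Scn9a at chr2:66634963-66635212 and Kcnf1 at chr12:17176889-17177138. Capitals mark a match to the GAS element bound by STAT factors, TTCNNNGAA, which reads the same on both strands.
Scn9a: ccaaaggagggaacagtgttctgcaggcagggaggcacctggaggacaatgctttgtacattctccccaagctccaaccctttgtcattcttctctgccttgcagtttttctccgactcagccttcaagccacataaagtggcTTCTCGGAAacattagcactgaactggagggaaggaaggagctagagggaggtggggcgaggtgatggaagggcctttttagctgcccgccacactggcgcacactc
Kcnf1: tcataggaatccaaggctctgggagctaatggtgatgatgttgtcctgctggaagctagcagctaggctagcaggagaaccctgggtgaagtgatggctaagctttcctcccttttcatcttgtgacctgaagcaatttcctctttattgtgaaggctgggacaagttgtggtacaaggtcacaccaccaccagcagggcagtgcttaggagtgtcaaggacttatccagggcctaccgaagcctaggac
The match before Scn9a begins at position -107 from the start of the gene, and Kcnf1 has none in these 250 bases. A match was found in 4 of the 30 promoters listed for 21 members (13.3%), those of Cacna1c, Kcnip1, Kcnmb2 and Scn9a, and in 2306 of 32851 promoters of all genes (7.02%). The cAMP response element TGACGTCA, also a palindrome, was found in 0 of the 30 and in 1.55% of all promoters. In the annotation Scn9a lies at chr2:66480080-66634962 and Kcnf1 at chr12:17172100-17176888, both on the minus strand, and 1.41% of the exonic bases of Scn9a are shared with another gene.

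Of the 8 calcium channel subunits, 4 were called lower at G14.5 and 0 higher. Cacna1c, the L-type channel Cav1.2, held 22.5, 24.2 and 15.95 CPM at G14.5, against 38.6 and 40.8 CPM at G0 (log2 fold change -0.93 ± 0.20, adjusted p = 0.0020). Cacna1a, the P/Q-type channel, held 17.2, 21.9 and 14.53 CPM at G14.5, against 31.9 and 39.2 CPM at G0 (log2 fold change -0.99 ± 0.22, adjusted p = 0.0031). The groups did not overlap for either gene. Cacna1d, the L-type channel Cav1.3, held 30.7, 32.7 and 22.8 CPM at G14.5, against 42.2 and 40.6 CPM at G0, a smaller difference (log2 fold change -0.53 ± 0.15, adjusted p = 0.025). Cacna2d1 held 67.04, 44.3 and 62.9 CPM at G14.5, against 74.2 and 92.2 CPM at G0 (log2 fold change -0.52 ± 0.17, adjusted p = 0.041). Cacna1a was not called without the second G0 replicate, Cacna1d not without either G0 replicate or the third G14.5 replicate, and Cacna2d1 not without the second G0 replicate or the second or the third at G14.5. The fourth pore, Cacna1b, was not called at G14.5 (log2 fold change 0.15), and neither were the cytoplasmic subunits Cacnb1, Cacnb2 and Cacnb3, at -0.69, 0.30 and -0.31 on the log2 scale.

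Among potassium channels Abcc8 held 349, 471 and 342 CPM at G14.5, against 575 and 570.4 CPM at G0 (log2 fold change -0.56 ± 0.11, adjusted p = 0.0007). The background channel Kcnk16 held 14.04, 25.5 and 16.6 CPM at G14.5, against 39.1 and 34.9 CPM at G0 (log2 fold change -0.98 ± 0.24, adjusted p = 0.0069). Kcnh6, an ERG-type delayed rectifier, held 10.9, 15.9 and 8.81 CPM at G14.5, against 24.3 and 16.7 CPM at G0 (log2 fold change -0.79 ± 0.22, adjusted p = 0.021). In each of these genes every G14.5 library lay below both G0 libraries. Kcnk16 was not called without the first replicate of G0 or of G14.5, and Kcnh6 not without the first G0 replicate (log2 fold change -0.49, adjusted p = 0.35) or the first or the third G14.5 replicate. The related Kcnh2 was not called (16.9, 28.8 and 19.6 CPM at G14.5, against 33.5 and 26.8 CPM at G0), nor was the large-conductance channel Kcnma1, with 17.5, 15.4 and 13.2 CPM at G14.5, against 12.01 and 11.9 CPM at G0.

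At G6.5, 0 of 31 members differed from G0 by edgeR or by DESeq2, and 7 had an unadjusted p under 0.05, against 1.65% of all genes called, 1.22% higher and 0.436% lower. The comparison of G18.5 shares its G0 libraries with those of G6.5, G14.5 and P14NL. At G18.5, 5 of 31 members differed from G0, against 4.77% of all genes: Scn9a and Kcnj5 were higher, where 3.27% of all genes were, and Cacna1c, Cacna2d1 and Kcnk16 lower, where 1.5% of all genes were. Cacna1c held 26.8, 25.7 and 18.2 CPM at G18.5, against 38.6 and 40.8 CPM at G0 (log2 fold change -0.75 ± 0.20, adjusted p = 0.020). Cacna2d1 held 50.5, 54.2 and 51.7 CPM at G18.5, against 74.2 and 92.2 CPM at G0 (log2 fold change -0.67 ± 0.17, adjusted p = 0.012), and Kcnk16 held 18.49, 25.9 and 19.3 CPM at G18.5, against 39.1 and 34.9 CPM at G0 (log2 fold change -0.80 ± 0.24, adjusted p = 0.047). Without the second G0 replicate none of the 5 was called. Cacna1c, Kcnj5 and Kcnk16 were not called without the first G0 or the third G18.5 replicate either, and Kcnk16 not without the first G18.5 replicate. After delivery, at P14NL, Kcnip1 alone of 31 members differed from G0, where 0.28% of all genes did: it held 103.5 and 99.5 CPM at P14NL, against 68.9 and 45.9 CPM at G0 (log2 fold change 0.82 ± 0.18, adjusted p = 0.036), and the call was lost without the second G0 replicate or either P14NL replicate.

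**Figure D2:**
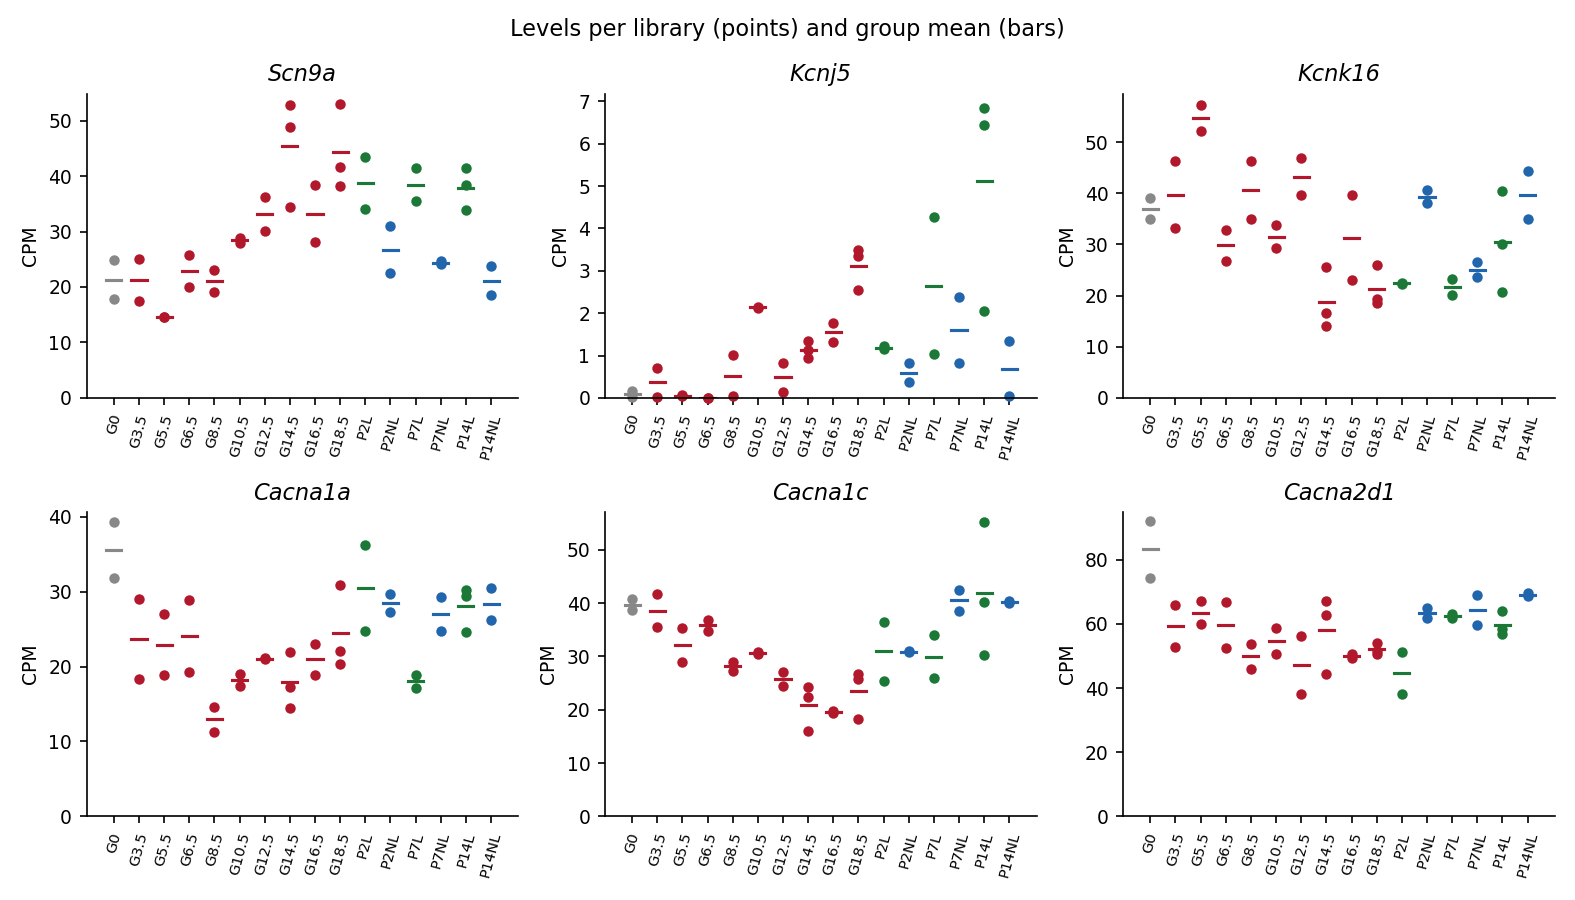
Points are the CPM of single libraries, bars are group means, and the groups run from G0 (grey) through gestation (red) to days after delivery, L in green and NL in blue. Scn9a lies at 27.97 CPM or more in each library from G10.5 to G18.5 and in the L groups, and Cacna1c has its lowest group mean at G16.5.

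Kcnj5, which carries a G-protein-gated potassium current, was low at G0, with 0.032 and 0.167 CPM from 2 and 4 reads. At G18.5 it held 2.54, 3.34 and 3.48 CPM (log2 fold change 5.20 ± 1.44, adjusted p = 0.030), and every G18.5 library lay above G0. Its reads came from few cells: 51 cells at G18.5 (14.9%) and 3 cells at G0 (2.80%) had at least 1 read, and at G6.5 no cell had one, which allows a share of up to 2.13% of cells by counting error alone, the cells being from 2 libraries. In the first G18.5 replicate 52.5% of its reads came from a single cell. At P14L it held 6.84, 2.05 and 6.45 CPM, against 0.046 and 1.33 CPM at P14NL, a difference that was not called (log2 fold change 2.89 ± 1.17, adjusted p = 0.40). Scn4a had fewer reads still, in 14 cells at G18.5 (4.09%), with 0.398, 0.262 and 0.857 CPM at G18.5 and 0 reads in both G0 libraries. Taken against a floor of 3 reads per G0 library, Scn4a was at least 5.86-fold higher at G18.5, a difference that was not called (adjusted p = 0.12, edgeR). A single G6.5 library held 0.876 CPM and the other 0.012 CPM.

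Further members that varied over the time course are given at stages with high or low values. Kcnn3 (SK3, a small-conductance calcium-activated channel) was highest at G3.5, where its libraries held 15.003 and 7.60 CPM, against 4.89 and 3.79 CPM at G0, and low at P7L with 1.08 and 2.43 CPM. Kcnn2 (SK2) held 4.52 and 4.96 CPM at G10.5, against 11.3 and 9.16 CPM at G0. Kcnf1, a subunit with no current of its own that modifies Kv2 channels, held 10.3 and 11.3 CPM at P2L, against 3.62 and 1.92 CPM at G0. Kcnmb2 held 64.5 and 64.8 CPM at G8.5, against 92.5 and 89.5 CPM at G0. Kcnk16 was highest at G5.5, at 57.4 and 52.3 CPM. These stages were named after their values were seen and were not tested singly.

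Between L and NL groups Scn9a was the 1 member called, on 1 of the 3 days. It held 34.02 and 43.5 CPM at P2L, against 31.01 and 22.5 CPM at P2NL. It held 41.4 and 35.5 CPM at P7L, against 24.8 and 24.1 CPM at P7NL, and 41.5, 33.9 and 38.3 CPM at P14L, against 23.7 and 18.6 CPM at P14NL. The L libraries lay above the NL libraries on each of these days. The difference was called at P14 (log2 fold change 0.84 ± 0.21, adjusted p = 0.047), where 1 of 31 members and 0.722% of all genes were called, and this call was lost when any of 4 of the 5 libraries was left out. The call of Scn9a was also lost with each cell given equal weight (log2 fold change 0.72, adjusted p = 0.093, limma). Beside it, the α-cell markers Gc and Ttr were lower at P14L, with log2 fold changes of -1.98 and -1.02. The δ-cell marker Rgs2 and the immune marker C1qa were higher, with log2 fold changes of 1.81 and 1.85. Summed α-cell markers were at 1228 to 2115 CPM at P14L, against 2648 to 3145 CPM at P14NL. Summed immune markers were at 70.3 to 112.3 CPM at P14L, against 13.9 to 38.7 CPM at P14NL; their part in the result was not tested. At P2 (log2 fold change 0.54 ± 0.22, adjusted p = 0.91) and P7 (log2 fold change 0.66 ± 0.22, adjusted p = 0.30) it was not called. There edgeR called 0 of 31 members, against 0.124% of all genes at P2 and 0.839% at P7, with 4 and 6 members at an unadjusted p under 0.05 and 0 and 1 members called by DESeq2. At P2 Kcnk16, with 22.6 and 22.2 CPM at P2L, against 40.7 and 38.02 CPM at P2NL (log2 fold change -0.81 ± 0.26, adjusted p = 0.59), and Cacna2d1 (log2 fold change -0.51 ± 0.18, adjusted p = 0.75) had smaller p than Scn9a and were not called. At P7 Kcnmb2 had the smallest p of the members, with 94.7 and 116.03 CPM at P7L, against 68.99 and 69.1 CPM at P7NL (log2 fold change 0.61 ± 0.18, adjusted p = 0.13).

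The difference between G14.5 and G0 could be read in 5 further pairs of groups whose libraries are all different: Acss2 WT, Stat3 WT and p300 WT mice on standard diet, and C57BL/6J and Acss2 WT mice on HFD. Over these and the time course, 15 of 31 members had 1 sign in each comparison that tested them, 11 lower and 4 higher, and 4 members were called in the same direction in at least 2. Among the 4 higher, Kcnj5 is a member only through Acss2 WT mice at G14.5. Its sign in that pair was favoured by the threshold on CPM and is a description. Another of the 4 higher, Scn4a, had 0 reads in every G0 library of the pairs that tested it. Its sign could therefore not be lower in any of them and is a description as well. In HFD Acss2 WT mice at G14.5 the reads of Scn4a were 0 in the first library and 23, from 1 cell, in the second. Of 13408 genes tested in at least 5 of these comparisons, which did not have to reach 10 CPM, 21.2% had 1 sign throughout. This sign was lower in 9.29% and higher in 11.9%, and 3.65% were called in 1 direction in at least 2. Scn9a was called higher in 3 of 5, Cacna1c lower in 2 of 5, and Cacna1a and Cacna2d1 lower in 2 of 6. The Stat3 table holds 21 of the 31 members, since the deposited table lists fewer genes, and lacks Scn9a and Cacna1c.

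In Acss2 WT mice Scn9a held 34.8 and 34.4 CPM at G14.5, against 10.8 and 16.8 CPM at G0 (log2 fold change 1.33 ± 0.23, adjusted p = 0.0028). It was the 1 member called, where 2.92% of all genes were, 2.01% higher and 0.903% lower. Without the first Acss2 WT library at G0 it was not called (adjusted p = 0.065). In p300 WT mice it held 56.6 and 42.2 CPM at G14.5, against 19.2 and 22.4 CPM at G0 (log2 fold change 1.25 ± 0.23, adjusted p = 0.014). Cacna1c held 17.2 and 31.5 CPM at G14.5, against 64.2 and 51.6 CPM at G0, in p300 WT mice (log2 fold change -1.25 ± 0.27, adjusted p = 0.030), and these were the 2 of 30 tested members called, where 2.15% of all genes were, 1.25% higher and 0.898% lower; neither was called without the first p300 WT library of either stage. The p300 WT mice were high for Cacna1c at G0, against 38.6 and 40.8 CPM in the time course and a mean of 36.7 CPM in Acss2 WT mice. In p300 WT mice 3 of 8 tested α-cell markers fell from G0 to G14.5, as did 2 of 5 δ-cell and both PP-cell markers. Gcg stood at -5.69, Sst at -4.73, Ppy at -4.99 and Pyy at -6.60 on the log2 scale. Summed α-cell markers were at 561 to 779.5 CPM at G14.5, against 1289 to 2697 CPM at G0. Summed δ-cell markers were at 56.5 to 74.7 CPM at G14.5, against 607 to 704 CPM at G0, in p300 WT mice; their part in the result was not tested. In Stat3 WT mice Kcnj5 was the 1 member called of 21, where 1.74% of all genes were, 1.26% higher and 0.48% lower. It had 1.72 and 1.57 CPM at G14.5 and 0 reads in both G0 libraries. Against the floor of 3 reads per library it was at least 18.6-fold higher (adjusted p = 0.043, edgeR). Its reads came from few cells, 3 in the first (4.55%) and 6 in the second G14.5 library (11.3%). A single cell held 65.9% of the reads in the first and 80.8% in the second. The count of 0 at G0 allows a share of up to 3.3% of cells by counting error alone. Kcnj5 was not called without any 1 of the 4 libraries, or with each cell given equal weight in limma. Rgs2, 1 of 6 δ-cell markers, was called lower at G14.5 in each of the 5 further pairs. Its log2 fold change was -1.87 in Acss2 WT, -2.47 in Stat3 WT, -3.21 in p300 WT, -3.47 in HFD and -2.62 in HFD Acss2 WT mice. In the time course Sst was the δ-cell marker called at G14.5 (log2 fold change -2.43). There Rgs2 and Rbp4 were called higher at G6.5, with log2 fold changes of 1.81 and 1.86. The part of these markers in the results was not tested.

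On HFD the sodium channel was not called. Scn9a held 31.3, 32.3 and 35.9 CPM at HFD G14.5, against 33.4 and 28.04 CPM at HFD G0 (log2 fold change 0.11), and 34.7 and 32.4 CPM in HFD Acss2 WT mice at G14.5, against 30.3 and 23.2 CPM at G0 (log2 fold change 0.33). Whether these differ from the changes on standard diet was not tested, because the time course and the HFD set were separate tables. The diets can be compared in Acss2 WT mice at G14.5: Scn9a held 34.7 and 32.4 CPM on HFD, against 52.4 and 62.1 CPM on SD (log2 fold change -0.77 ± 0.22, adjusted p = 0.13). In that comparison edgeR called 0 of 31 members, where 0.213% of all genes were called, with 6 members at an unadjusted p under 0.05 and 2 called by DESeq2. The Acss2 set holds other Acss2 WT mice at G14.5 on standard diet, scaled within their own table. Their Scn9a mean was 34.6 ± 0.300 CPM (SD, n = 2), near the values on HFD. Single calcium channel subunits were lower at G14.5 on HFD, too. Cacna2d1 held 59.5, 57.2 and 46.2 CPM at HFD G14.5, against 80.1 and 96.6 CPM at HFD G0 (log2 fold change -0.70 ± 0.17, adjusted p = 0.035), the 1 member called where 1.95% of all genes were; the call was lost without either HFD G0 replicate or 2 of the 3 HFD G14.5 replicates, and with each cell given equal weight (adjusted p = 0.27, limma). Beside it, 2 of 12 β-cell markers, Iapp and Slc2a2, were lower at HFD G14.5, with log2 fold changes of -1.13 and -0.80, as was the stress gene Hspa1b (log2 fold change -3.06). In HFD Acss2 WT mice Cacna1a held 16.1 and 14.2 CPM at G14.5, against 47.3 and 29.3 CPM at G0 (log2 fold change -1.34 ± 0.31, adjusted p = 0.031), the 1 member called where 1.93% of all genes were, and not called without 1 of 3 of the 4 libraries or with each cell given equal weight (adjusted p = 0.058, limma). There Hspa1b was lower and Jun higher at G14.5, with log2 fold changes of -6.20 and 1.88; the part of these genes in the results on HFD was not tested. At HFD P7NL against HFD G14.5, edgeR called 0 of 31 members, where 1.32% of all genes were called, with 6 members at an unadjusted p under 0.05 and 1 called by DESeq2.

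**Figure D3:**
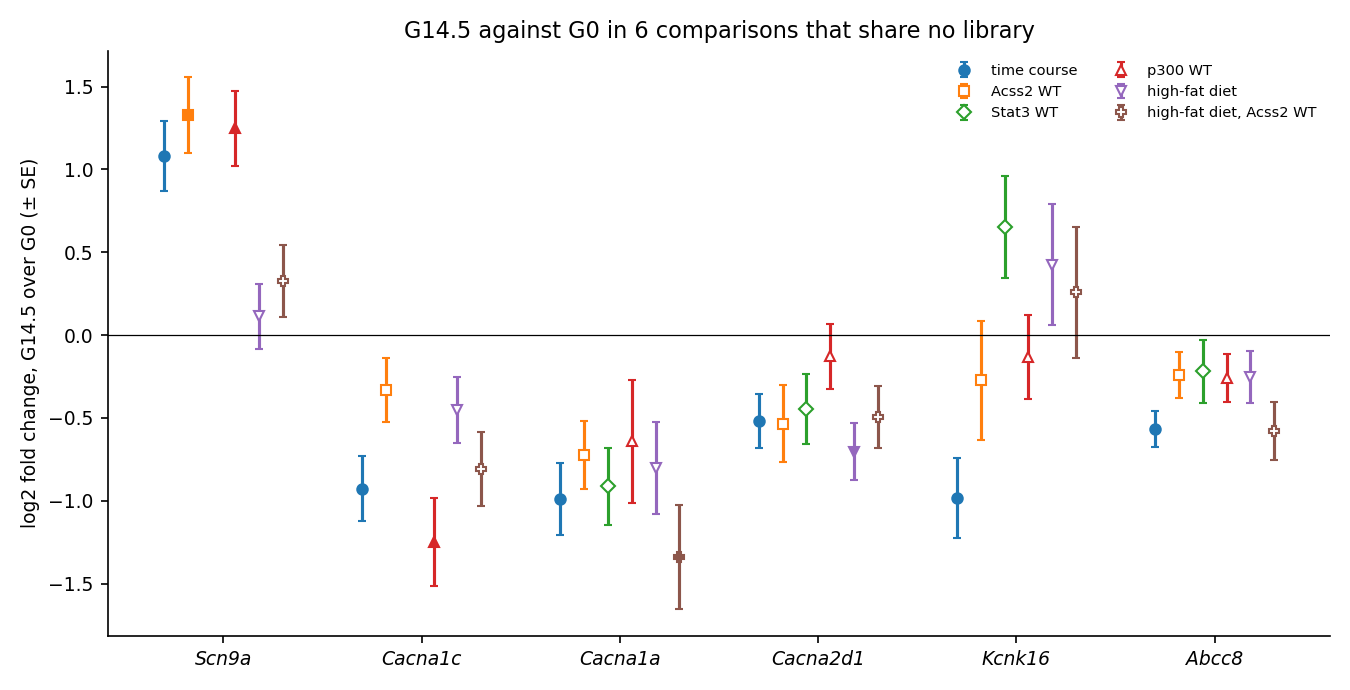
Points give the log2 fold change of G14.5 over G0 with its SE for 6 members in 6 comparisons that share no library; filled points are called and open points are not. Cacna1a and Cacna2d1 lie below 0 in each comparison, Scn9a lies above 0 in its 5, and Kcnk16 lies on both sides.

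Kcnk16 and Abcc8, both lower at G14.5 in the time course, were not called in the other 5 pairs. Abcc8 had log2 fold changes of -0.22 to -0.58 there. Kcnk16 ranged from -0.27 to 0.65, and in Stat3 WT mice it held 45.2 and 48.6 CPM at G14.5, against 36.04 and 23.4 CPM at G0.

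The knockouts were compared with wild type at G14.5. No member was called by edgeR in Acss2 KO (0 of 31, against 0.0213% of all genes), Stat3 KO (0 of 21, against 0.0098% of all genes) or p300 KO mice (0 of 30, against 0% of all genes), nor in Acss2 KO mice on HFD (0 of 31, against 0.0638% of all genes). In these comparisons 5, 1, 5 and 4 members had an unadjusted p under 0.05, and DESeq2 called 1, 1, 2 and 0. The test of whether G14.5 differed from G0 by another amount in KO than in WT mice called 0 members in each of the 3 sets, where 0.0213%, 0% and 0.0668% of all genes were called for Acss2, Stat3 and p300 (for p300 0.0594% higher and 0.00742% lower), with 3, 4 and 8 members at an unadjusted p under 0.05 and 0, 0 and 3 called by DESeq2. Scn9a held 29.3 and 30.4 CPM in Acss2 KO mice at G14.5, against 34.8 and 34.4 CPM in Acss2 WT mice, and its response differed between them by -0.77 ± 0.32 on the log2 scale (adjusted p = 0.78). Kcnj5 shows how a single library can set such a level: at G14.5 it held 0.117 and 0.311 CPM in Acss2 KO mice, against 0.155 and 21.2 CPM in Acss2 WT mice, and the last library, in which 24 of 46 cells had a read, is why it is a member.

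Kcnf1 was lower in p300 KO mice at G0. This comparison, like those of the other knockouts at G0, was added after values were seen. Kcnf1 held 0.657 and 0.774 CPM in p300 KO mice at G0, against 14.4 and 26.1 CPM in p300 WT mice (log2 fold change -4.82 ± 0.44, adjusted p = 0.00036). A read was found in 5 p300 KO cells (6.02%) and in 71 p300 WT cells (61.7%) at G0, although the median depth was 1.54e+06 reads per p300 KO cell and 1.01e+06 reads per p300 WT cell. With each cell thinned to 300000 reads the shares were 4.82% in p300 KO and 56.5% in p300 WT mice. Ep300 itself held 15.9 and 11.9 CPM in p300 KO mice at G0, against 24.2 and 36.7 CPM in p300 WT mice. The p300 WT mice were high for Kcnf1: in the time course G0 libraries held 3.62 and 1.92 CPM, and in Acss2 WT mice 4.58 and 4.54 CPM, each scaled within its own table. At G14.5 Kcnf1 held 2.10 and 1.63 CPM in p300 KO mice, against 9.003 and 8.55 CPM in p300 WT mice (log2 fold change -2.23 ± 0.39, adjusted p = 0.061), which was not called.

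**Figure D4:**
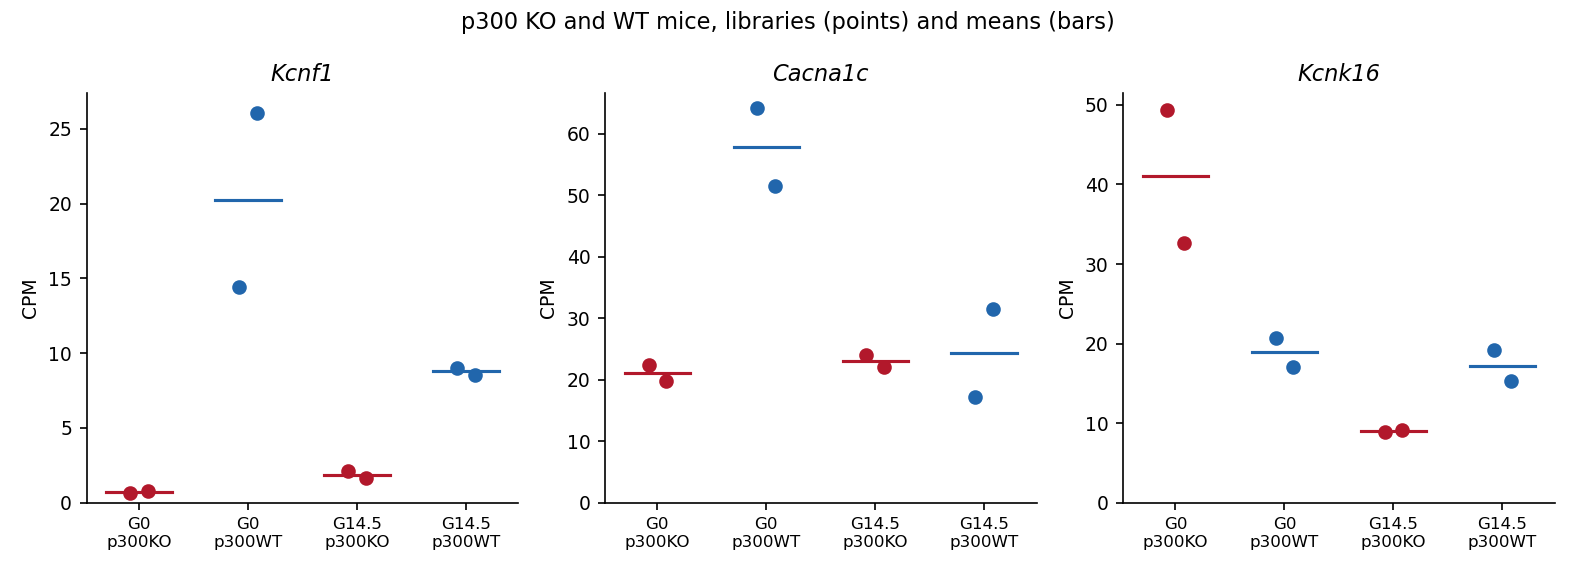
Points are single libraries and bars group means, in CPM, for 3 members in p300 KO (red) and p300 WT mice (blue) at G0 and G14.5. Kcnf1 lies below 1 CPM in both p300 KO libraries at G0 and above 14 CPM in both p300 WT libraries.

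At G0 p300 KO and p300 WT mice differed in 3 of 30 members, the same 3 of all 72 channel symbols tested, where 1.54% of all genes were called. Beside Kcnf1 these were Cacna1c, with 22.5 and 19.9 CPM in p300 KO mice, against 64.2 and 51.6 CPM in p300 WT mice (log2 fold change -1.45 ± 0.27, adjusted p = 0.023), and Kcnk16, with 49.4 and 32.7 CPM in p300 KO mice, against 20.7 and 17.04 CPM in p300 WT mice (log2 fold change 1.12 ± 0.25, adjusted p = 0.049). Cacna1c was not called without either p300 KO library or with each cell given equal weight (log2 fold change -1.06, adjusted p = 0.089, limma). Kcnk16 was not called without any 1 of the 4 libraries, without insulin reads (adjusted p = 0.051, edgeR) or with the size factors of DESeq2 (adjusted p = 0.0505, edgeR). The p300 WT libraries at G0 are also those of the G14.5 comparison above. For Kcnk16 the p300 WT mice were low at G0. Its G0 libraries held 39.1 and 34.9 CPM in the time course and 36.04 and 23.4 CPM in Stat3 WT mice. The G0 mean in Acss2 WT mice was 35.2 CPM. For Cacna1c the p300 WT mice were high, against 38.6 and 40.8 CPM in the time course and a mean of 36.7 CPM in Acss2 WT mice. Each set was scaled within its own table. Both p300 KO libraries lay outside the p300 WT range for Kcnf1, Cacna1c and Kcnk16. Beside them, 1 of 5 tested δ-cell markers, Rgs2, was lower in p300 KO mice at G0 (log2 fold change -4.76). Of 2 immune markers tested, C1qa was lower (log2 fold change -1.88). Of 12 immediate-early genes Egr1 was lower and Dnajb1 higher, with log2 fold changes of -0.87 and 1.04. Summed immune markers were at 13.7 to 17.5 CPM in p300 KO mice at G0, against 38.7 to 57.7 CPM in p300 WT mice. Summed δ-cell markers were at 216.98 to 791 CPM in p300 KO mice, against 607 to 704 CPM in p300 WT mice; their part in the result was not tested. The comparisons at G0 called 0 members for Acss2 KO (0.00711% of all genes) and for Stat3 KO (0% of all genes), with 2 and 3 members at an unadjusted p under 0.05 and 0 called by DESeq2. For Kcnk16 the p300 KO mice stood lower at G14.5, with 8.90 and 9.12 CPM, against 19.1 and 15.3 CPM in p300 WT mice (log2 fold change -0.93 ± 0.25, adjusted p = 0.19). The difference of responses was -2.05 ± 0.36 on the log2 scale (adjusted p = 0.065).

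In cultured islets A485 moved 8 of 31 members against vehicle over both sera, where 11.2% of all genes were called: 5 rose, where 3.73% of all genes did, and 3 fell, where 7.5% of all genes did. One of those that fell, Scn4a, is a member only through the vehicle groups in maternal serum. Of the 30 others, 7 were called, 5 higher and 2 lower. Among all 79 channel symbols tested, which did not have to reach 10 CPM, 10 were called. Kcnip1 held 54.4, 48.7, 48.2 and 41.98 CPM with A485, in maternal and then normal serum, against 89.6, 100.4, 79.3 and 112.1 CPM with vehicle (log2 fold change -0.99 ± 0.13, adjusted p = 0.00085). All A485 libraries lay below all vehicle libraries. Kcnf1 held 23.9 and 17.05 CPM with A485 in maternal serum, against 34.2 and 66.5 CPM with vehicle, and 2.59 and 0.178 CPM with A485 in normal serum, against 5.09 and 13.4 CPM with vehicle (log2 fold change -2.01 ± 0.49, adjusted p = 0.022). Scn4a held 0.227 and 0.974 CPM with A485 in maternal serum, against 6.72 and 20.1 CPM with vehicle, and 0.099 and 0.934 CPM with A485 in normal serum, against 1.80 and 1.04 CPM with vehicle (log2 fold change -2.97 ± 0.71). Its group means in maternal serum with vehicle, which made it a member, were 13.4 CPM here and 24.4 CPM in the nifuroxazide set, so its difference from them is a description. Within each serum the A485 libraries lay below the vehicle libraries for both genes. Scn4a was not called without the second vehicle or the first A485 library in maternal serum, and Kcnf1 not without the second A485 library in maternal serum or the second vehicle library in normal serum. Nor was Kcnf1 called with DESeq2's Wald test (adjusted p = 0.081).

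The members that rose with A485 were calcium and sodium channel genes. Cacna2d1 held 90.9, 78.1, 120.2 and 95.5 CPM with A485, against 52.999, 55.2, 74.8 and 76.1 CPM with vehicle (log2 fold change 0.58 ± 0.11, adjusted p = 0.0066). Cacnb1 held 6.63, 5.46, 9.61 and 9.34 CPM with A485, against 2.96, 2.70, 2.89 and 4.42 CPM with vehicle (log2 fold change 1.23 ± 0.32, adjusted p = 0.028). Cacna1a rose by 0.70 ± 0.15 (adjusted p = 0.013), Cacna1b by 0.70 ± 0.20 (adjusted p = 0.048) and Scn8a by 0.73 ± 0.17 (adjusted p = 0.020) on the log2 scale. Each A485 library lay above each vehicle library for Cacna2d1, Cacnb1 and Cacna1b. Cacna1b was not called without any 1 of the 8 libraries or without cells over 5% in other hormones (adjusted p = 0.053, edgeR), Cacnb1 not without any 1 of 6, and Cacna1a and Scn8a not without the first A485 library in maternal serum, and Scn8a not without the first A485 library in normal serum. Beside these members, 7 of 12 β-cell markers fell with A485, and of 12 immediate-early genes 6 rose and 2 fell. Of 6 α-cell markers tested 1 rose and 2 fell, with Gcg at 4.75 and Gc at -4.06 on the log2 scale. Of 5 δ-cell markers Rgs2 rose (log2 fold change 1.85) and Sst fell (log2 fold change -2.17), and the immune marker C1qa and the endothelial marker Pecam1 fell, with log2 fold changes of -2.76 and -4.31. Summed δ-cell markers were at 864 to 932 CPM with A485, against 116.2 to 221 CPM with vehicle in maternal serum, and at 353 to 470 CPM with A485, against 539 to 2571 CPM with vehicle in normal serum; their part in the result was not tested.

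Nifuroxazide lowered 3 of 30 tested members against vehicle, where 2.3% of all genes fell and 4.07% were called in either direction. Among all 68 channel symbols tested, these 3 were the ones called. Kcnf1 held 19.3 and 10.2 CPM with nifuroxazide in maternal serum, against 53.7 and 87.9 CPM with vehicle, and 2.10 and 1.00 CPM with nifuroxazide in normal serum, against 10.8 and 16.52 CPM with vehicle (log2 fold change -2.70 ± 0.30, adjusted p = 0.00019). Scn3a, the channel Nav1.3, held 8.06 and 7.07 CPM with nifuroxazide in maternal serum, against 24.5 and 16.9 CPM with vehicle, and 1.05 and 2.58 CPM with nifuroxazide in normal serum, against 9.58 and 6.62 CPM with vehicle (log2 fold change -1.80 ± 0.34, adjusted p = 0.0088). Kcnab3, a cytoplasmic β subunit of Kv channels, held 5.38, 5.65, 10.4 and 4.93 CPM with nifuroxazide, against 14.7, 11.9, 17.5 and 23.96 CPM with vehicle (log2 fold change -1.36 ± 0.29, adjusted p = 0.019). Within each serum the nifuroxazide libraries lay below those with vehicle for each of the 3 genes. Kcnf1 reads were found in 31 of 70 cells with nifuroxazide and 59 of 70 with vehicle in maternal serum. Kcnab3 was not called without either nifuroxazide library in maternal serum or the second vehicle library in normal serum. With nifuroxazide, too, 7 of 12 β-cell markers fell, and summed α-cell markers were at 848 to 1274 CPM with nifuroxazide, against 1320 to 4467 CPM with vehicle; their part in the result was not tested.

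The serum itself was read in the vehicle groups, whose libraries also serve as vehicle above. Kcnf1 held 53.7 and 87.9 CPM in maternal serum, against 10.8 and 16.52 CPM in normal serum, in the nifuroxazide set (log2 fold change 2.38 ± 0.40, adjusted p = 0.0097). Scn4a held 3.38 and 45.3 CPM in maternal serum, against 0.119 and 0.329 CPM in normal serum (log2 fold change 6.79 ± 1.26), a description, since it is a member through its level in maternal serum. Leaving out Scn4a, 1 of 29 tested members was called, where 1.02% of all genes were. Neither gene was called without the second library in maternal serum or the first in normal serum, nor Scn4a without the second in normal serum. In the same comparison 3 of 12 β-cell markers, Ucn3, Slc30a8 and Ero1lb, were lower in maternal serum, as were the α-cell marker Ttr (log2 fold change -2.08) and the immune marker C1qa (log2 fold change -1.65). Summed α-cell markers were at 1320 to 1502 CPM in maternal serum, against 2400 to 4467 CPM in normal serum. Summed immune markers were at 27.7 to 41.7 CPM in maternal serum, against 81.6 to 81.97 CPM in normal serum; their part in the result was not tested. The A485 set holds other libraries of the same contrast and had the same direction: Kcnf1 held 34.2 and 66.5 CPM in maternal serum, against 5.09 and 13.4 CPM in normal serum (log2 fold change 2.41 ± 0.67, adjusted p = 0.18), and Scn4a 6.72 and 20.1 CPM in maternal serum, against 1.80 and 1.04 CPM in normal serum (log2 fold change 3.27 ± 0.99). In that set the δ-cell marker Sst was lower in maternal serum (log2 fold change -6.88 ± 1.07, adjusted p = 0.014). There edgeR called 0 of 31 members, where 0.657% of all genes were called, with 5 members at an unadjusted p under 0.05 and 1 called by DESeq2. Scn4a reads were found in 26 of 70 cells in maternal serum and 3 of 64 in normal serum in the nifuroxazide set, and in 40 of 100 cells in maternal serum and 6 of 93 in normal serum in the A485 set. Thinned to 300000 reads per cell, the shares were 31.9% in maternal and 1.59% in normal serum in the nifuroxazide set, and 30% in maternal and 7.04% in normal serum in the A485 set, whose median depth was 1.02e+06 reads per cell in maternal and 461019 in normal serum. Cells with fewer reads were left out, in the A485 set 22 of 93 in normal and 0 of 100 in maternal serum. Cacna1c was not called in the nifuroxazide set, with 35.7 and 46.5 CPM in maternal serum, against 70.1 and 76.7 CPM in normal serum (log2 fold change -0.84 ± 0.21, adjusted p = 0.092).

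**Figure D5:**
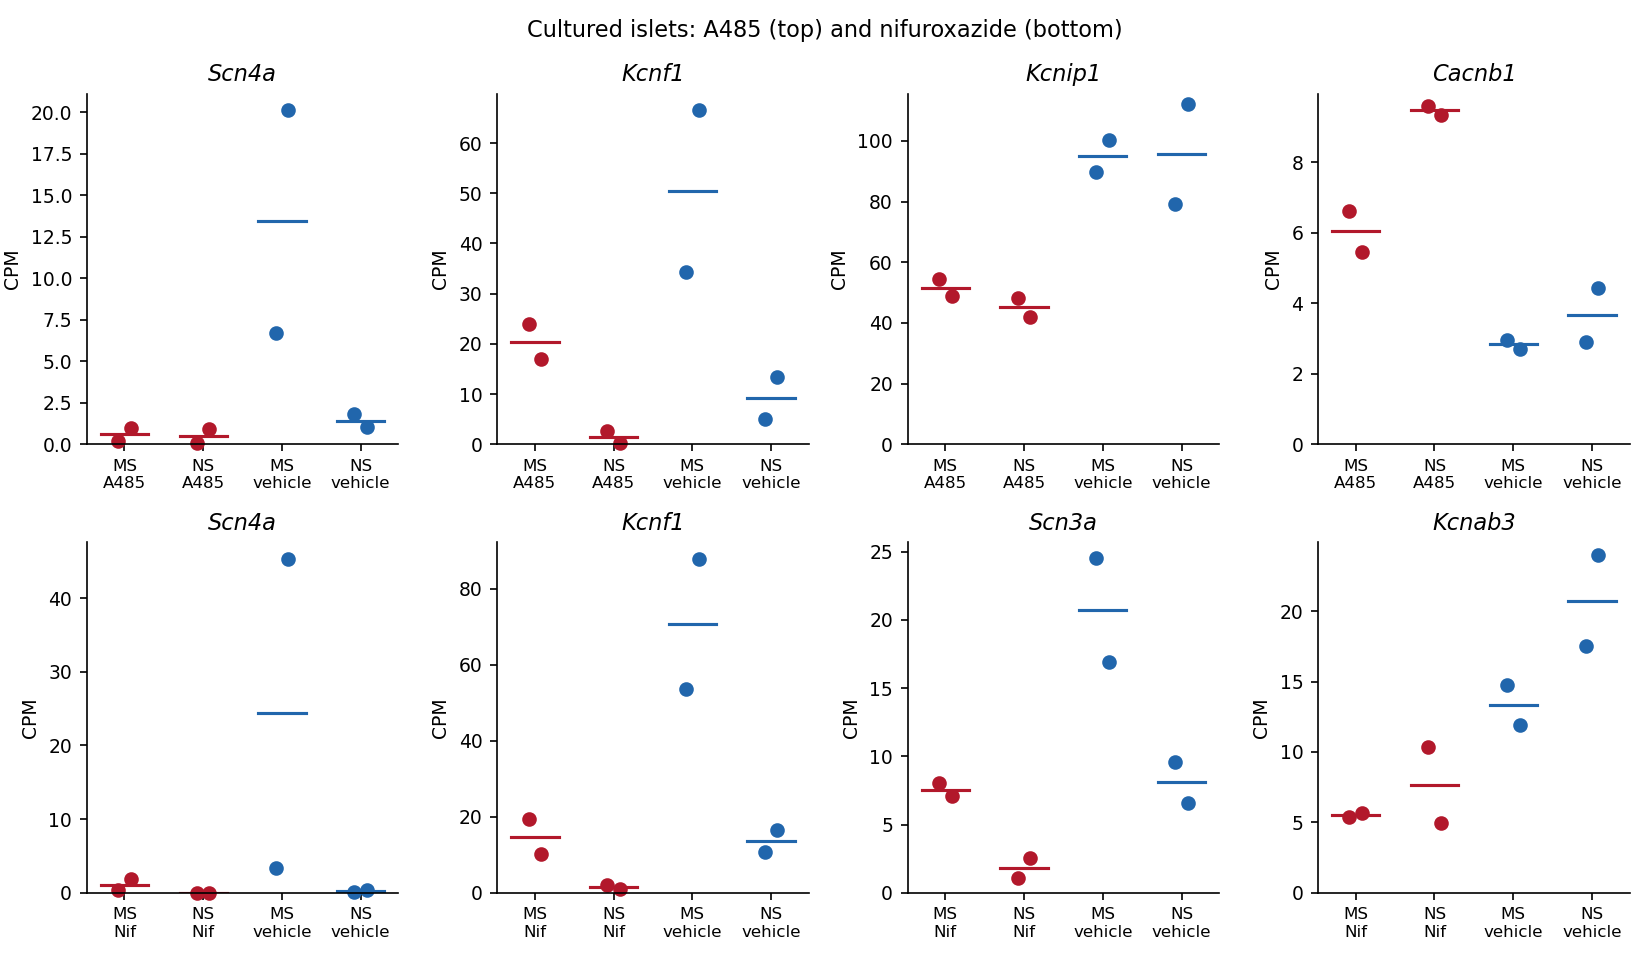
Points are single libraries and bars group means, in CPM, with A485 (top) or nifuroxazide (bottom) in red and vehicle in blue, each in maternal (MS) and normal serum (NS). Kcnf1 is highest with vehicle in maternal serum in both sets, between 34.2 and 87.9 CPM.

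The rest of the stimulus-secretion pathway was followed in 5 lists of genes. At G14.5 against G0, where 10.1% of all genes were called, 5.96% higher and 4.15% lower, of 15 genes of glucose entry and breakdown 1 rose and 2 fell: G6pc2, which encodes a glucose-6-phosphatase of islets, rose by 1.40 ± 0.14 on the log2 scale (adjusted p = 2.5e-08), and Pfkl and Pkm fell. Of 19 genes of calcium stores and pumps 1 rose and 4 fell, among them Itpr2, an IP3 receptor (log2 fold change -0.87 ± 0.24), and Stim1, the calcium sensor of the endoplasmic reticulum (log2 fold change -0.84 ± 0.23). Of 25 genes of granule docking and fusion 1 rose and 3 fell, and of 26 genes known to act on channels 1 rose and 3 fell, with the kinase Sgk1 at -1.95 ± 0.60. Of 27 other membrane channels and pumps 0 were called. The median log2 fold change was -0.11 for glucose genes, -0.14 for calcium stores, -0.21 for granule fusion, 0.10 for channel regulators and -0.04 for other channels, against 0.0054 over all genes.

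In culture the same lists were counted with the drugs. With A485, Trpm5, a calcium-activated cation channel of β cells, fell by 4.08 ± 0.20 on the log2 scale (adjusted p = 1.6e-06), and the endoplasmic calcium pump Atp2a2 fell by 1.12 ± 0.09. Where 3.73% of all genes rose and 7.5% fell, 4 of 24 other channels rose and 2 fell, and 5 of 26 genes of granule fusion rose and 4 fell. In the remaining lists, 0 of 19 genes of calcium stores rose and 3 fell, 1 of 15 glucose genes rose and 5 fell, and 1 of 25 channel regulators rose and 3 fell. With nifuroxazide, where 4.07% of all genes were called and 2.3% fell, 6 of 25 genes of granule fusion fell and 0 rose. Of the other lists, 0 of 22 other channels rose and 1 fell, 1 of 18 genes of calcium stores rose and 0 fell, 1 of 13 glucose genes rose and 2 fell, and 0 of 23 channel regulators rose and 2 fell. Syt5 stood at -1.07 ± 0.24, Trpm5 fell by 0.71 ± 0.15, and Rem2, a small GTPase that restrains calcium channels, fell by 1.35 ± 0.28 on the log2 scale (adjusted p = 0.016).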

How the data were processed

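Single β cells of female C57BL/6J mice were read with Smart-seq3xpress. The deposited tables hold raw read counts per gene and cell, which the authors made with Trimmomatic 0.39 and featureCounts 2.0.1 on GRCm38/mm10, per the submitters' processing notes; which aligner and annotation served is not stated there, and 2 droplet samples were not analysed here. Counts of all cells with the same group and replicate number were added into 100 libraries, since cells are not replicates. Nothing in the labels says that replicates came from separate mice, so p-values measure the spread between these libraries, which may be technical. Each of 7 tables was fitted on its own with edgeR 4.0.16 in R 4.3.3 (filterByExpr, TMM, quasi-likelihood test over all genes, Benjamini-Hochberg adjustment, threshold 0.05); a gene is called when it passes. The standard error (SE) is the size of the log2 fold change over the square root of F. CPM use TMM library sizes. Alternatives used DESeq2 1.42.0 and limma 3.58.1. The fits were tested on simulated data. Depth was 13273435 to 181405413 reads per library. Shares of cells carry no interval, apart from the upper limit for a count of 0; this limit and the floors of 3 reads cover counting error only.

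Named genes were 20 channel genes known in β cells where they were members, members called over the time course, the 3 highest and 3 lowest called in each comparison, and members called in 1 direction in at least 2 independent comparisons of G14.5 with G0. Some genes that this rule names are not reported here. Genes named outside it were chosen after their values were seen. The members and lists were chosen with earlier results of these data known. Of 29 comparisons, the 3 of knockouts at G0 were added after values were seen. Promoters were those of RefSeq for GRCm38.p6.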

Additional observations from a re-analysis of the deposited data

How the results depend on the processing

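Of 37 calls of members in single comparisons, 7 were kept under every alternative run and 0 reversed, and 363 of 466 alternatives kept the call. The 7 were Abcc8 and Cacna1c at G14.5, Kcnf1 in p300 KO mice at G0, Cacna2d1 and Kcnip1 with A485, and Kcnf1 and Scn3a with nifuroxazide. Among the calls lost with each cell given equal weight in limma were Cacna2d1 at G14.5 and Cacna1c, Cacna2d1 and Kcnk16 at G18.5. Cacna1c at G14.5 in p300 WT and Scn4a for serum in the nifuroxazide set were lost with equal weight, too. The cause of the losses was not tested.

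DESeq2 size factors (RLE), leaving out insulin reads and leaving out cells over 5% in other hormones moved no count of called members beyond 1.5 times. They ended the call of Kcnk16 in p300 KO mice at G0 (RLE, adjusted p = 0.0505; without insulin reads, 0.051) and of Cacna1b with A485 (without those cells, 0.053), all by edgeR. With DESeq2's Wald test the counts were 1 for P7L, 4 for G14.5 in Acss2 WT, 1 for Acss2 KO at G14.5, 4 for G14.5 in Stat3 WT, 1 for Stat3 KO at G14.5, 5 for G14.5 in p300 WT, 2 for p300 KO at G14.5, 3 for the p300 difference of responses, 7 for p300 KO at G0, 3 for HFD G14.5, 1 for HFD P7NL, 6 for HFD G14.5 in Acss2 WT, 2 for HFD against SD, 1 for serum in the A485 set and 4 for serum in the nifuroxazide set. With no filter on low counts they were 1 for P2L, 2 for P7L, 3 for P14L, 4 for G14.5 in Acss2 WT, 4 for Acss2 KO at G14.5, 1 for the Acss2 difference of responses, 5 for G14.5 in Stat3 WT, 1 for Stat3 KO at G14.5, 2 for the Stat3 difference of responses, 1 for Stat3 KO at G0, 4 for G14.5 in p300 WT, 2 for p300 KO at G14.5, 4 for the p300 difference of responses, 7 for p300 KO at G0, 2 for HFD G14.5, 1 for HFD P7NL, 4 for HFD G14.5 in Acss2 WT, 1 for Acss2 KO on HFD, 2 for HFD against SD, 2 for serum in the A485 set, 4 for serum in the nifuroxazide set and 5 for nifuroxazide. With each cell given equal weight in limma they were 9 over the time course, 3 at G18.5, 0 for G14.5 in Stat3 WT, 1 for G14.5 in p300 WT, 0 for HFD G14.5, 0 for HFD G14.5 in Acss2 WT, 2 for serum in the A485 set, 20 for A485 and 1 for serum in the nifuroxazide set. With no threshold on CPM, 8 channel symbols were called at G18.5, 2 at G14.5 in Acss2 WT, 2 in Stat3 WT, 2 for HFD G14.5 and 3 for HFD G14.5 in Acss2 WT.

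Leaving out 1 library gave 13 to 16 called members over the time course, 0 to 1 at G6.5, 5 to 10 at G14.5, 0 to 5 at G18.5, 0 to 1 at P14NL, 0 to 0 for P2L and P7L, and 0 to 1 for P14L. It gave 0 to 3 for G14.5 in Acss2 WT, 0 to 0 in Stat3 WT and 0 to 3 in p300 WT, 0 to 1 for HFD G14.5 and 0 to 3 for HFD G14.5 in Acss2 WT. It gave 0 to 2 for Acss2 KO at G14.5 and for the p300 difference of responses, 1 to 3 for p300 KO at G0, 4 to 7 for A485, 2 to 5 for nifuroxazide, 0 to 1 for serum in the A485 set and 0 to 2 in the nifuroxazide set. The lone library left in an arm is assumed to vary like the other groups.

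The labels do not say that a replicate number pairs libraries. Over 20 comparisons the correlation of deviations between libraries of the same number ran from -0.12 to 0.18 with a median of 0.0098, and was over 0.1 in 3. A replicate block gave 2 called members for G14.5 in Acss2 WT, gaining Kcnj5, which is a member only through that G14.5 group, and 0 for HFD G14.5. At G14.5 the replicate block gave 6, losing Cacna1d and Kcnh6, and at G18.5 4, losing Kcnk16. For A485 it gave 9, gaining Kcnj5 and Kcnn2 and losing Cacna1b, for nifuroxazide 4, gaining Scn4a, and over the time course 15, with Scn8a in place of Kcnn2. On HFD the lost call was Cacna2d1.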

Other observations

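Among channel symbols below 10 CPM, Kcnk10 (TREK-2, a 2-pore potassium channel opened by stretch and lipids) was called higher at G14.5 than at G0 in 5 of the 6 comparisons that share no library, and at G18.5; in p300 WT mice it was not called (adjusted p = 0.061 by edgeR). Its libraries held 1.80 to 2.43 CPM at G14.5 and 3.33 to 4.12 CPM at G18.5, against 0 to 0.048 CPM at G0, in the time course. On HFD they held 2.77 to 3.77 CPM at G14.5, against 0 to 0.016 CPM at G0. In Stat3 WT mice they held 3.36 to 3.79 CPM at G14.5 and no read at G0. The gene was named after its values were seen.

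Kcnk3 (TASK-1, an acid-sensitive 2-pore channel) was lower in the time course, with 0.456 to 0.729 CPM at G14.5 and 0.716 to 0.796 CPM at G18.5, against 5.03 to 9.04 CPM at G0. By edgeR the log2 fold change at G14.5 was -3.54 ± 0.61 (adjusted p = 0.00023). It was not called in the 4 further comparisons of G14.5 with G0 that tested it, where the log2 fold change ran from -1.67 to 1.24.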
